A study of Homo sapiens with 2 samples.

Results

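The presynaptic vesicle release genes described here are 38 human genes whose proteins fill the nerve terminal with vesicles, dock and fuse them, and take the membrane back. They were taken by name, by a rule that uses no measured value although earlier results of these data were known, and all 38 were found among the 62704 genes counted in each of 2 split-seq libraries of cerebral organoids. Transmitter release begins when the vesicle SNARE synaptobrevin pairs with syntaxin and SNAP-25 on the cell membrane. Priming factors and the scaffold of the active zone hold the vesicle in place, a synaptotagmin senses calcium and triggers fusion, and dynamin, synaptojanin and amphiphysin help to retrieve the membrane. Much of this machinery is specific to neurons and endocrine cells, while NSF and its partners serve membrane fusion in every cell.

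The organoids were grown from the H9 human embryonic stem cell line, so both libraries stem from 1 line. The library of single cells pooled control organoids (CO) at days 45, 55 and 70, organoids dissociated to single cells at day 45 and reaggregated (DISS), collected at days 48, 55 and 70, and constrained organoids (CONS), freed of Matrigel at day 13, set in 3% agarose and collected at day 55. The library of nuclei came from day 45 CO, from frozen whole organoids and from suspensions of dissociated organoids. The study embedded its CO in Matrigel. The treatment label of the nuclei also holds the word Embed, and no source used here says what it refers to. Every barcode of a library carries the same sample name, so conditions, days and organoids could not be told apart, each library was 1 sample, and no test was run. Intervals are 95% and cover counting error only.

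Barcodes entered when they held over 500 genes and over 1000 transcripts, with no more than 20% of the transcripts mitochondrial. Of 1303455 deposited barcodes of the cells, 20178 were kept, with a median of 2615 transcripts, and of 197446 barcodes of the nuclei 14228, with a median of 3890. Clusters built without the 38 genes were named by marker lists, and the level of a gene was its transcripts per 10000 transcripts of the class. Excitatory-marker barcodes numbered 1843 cells (median 7265 transcripts) and 3266 nuclei (3980), and progenitor-marker barcodes 5095 cells (3342) and 5982 nuclei (3339). Choroid plexus-marker barcodes, the epithelium used as a class without synapses, numbered 2402 cells (2332.5) and 347 nuclei (9708). Intermediate progenitor-marker barcodes numbered 876 cells (5723) and 1305 nuclei (3591); intermediate progenitors are the daughters of radial glia from which cortical neurons arise. The dividing markers of this class were at 2.37 transcripts per 10000 in cells, against 22.9 in progenitor and 1.88 in excitatory cells. In nuclei they were at 5.18, against 18.1 and 0.904. Its radial glia markers were at 29.0 in cells and 35.6 in nuclei, its excitatory markers at 11.7 and 8.34, and its own 6 markers at 9.04 and 6.55. The cell cluster of the class had EBF2, NHLH1 and EOMES among its leading genes. A cluster of 250 cells with EOMES and the dividing genes KIF20A and BUB1 among its leading genes was left unnamed. The name of the intermediate progenitor-marker class thus rests on its markers, and whether its barcodes are progenitors or young neurons was not tested. The 9 excitatory markers summed to 17.0 transcripts per 10000 in excitatory cells against 2.64 in progenitor cells, and to 13.5 against 2.08 in nuclei. The 9 choroid plexus markers summed to 141.7 in the choroid plexus cells and 292.9 in the nuclei, whose cluster was led by the cilium genes HOATZ, DYNLT5 and TEKT1. A class with the markers of Cajal-Retzius cells, early neurons of the outer cortex, numbered 544 cells (6173.5) and 733 nuclei (3781). In the cells its 6 markers were at 10.3 transcripts per 10000, below the choroid plexus markers at 26.8 and the radial glia markers at 20.4. In the nuclei they were at 20.3, beside 2.61 and 19.6. Over all kept cells the Cajal-Retzius, choroid plexus and radial glia lists were at 0.909, 22.2 and 32.7, and over all kept nuclei at 1.68, 27.4 and 36.9. PAX3, ZIC4 and ZIC1 were among the leading genes of the cell cluster. The name may thus stand for different cells in the 2 libraries. The 9369 cells (46.4%) and 2476 nuclei (17.4%) in clusters that met no list, or failed a further condition on their leading genes or radial glia markers, were left unnamed. The largest excitatory cluster of the nuclei, with 1473 nuclei, had CALB2, a marker of the Cajal-Retzius list, among its 10 leading genes and no excitatory marker there. Of the excitatory nuclei, a cluster of 723 was led by hypoxia and heat-shock genes such as HSPH1, and of the progenitor nuclei a cluster of 565 by heat-shock genes. No cluster met the rule for inhibitory neurons. Single barcodes were therefore taken when at least 3 transcripts of at least 2 inhibitory markers were present, which gave 119 nuclei (median 4927 transcripts) and 49 cells (21438). In those 49 cells the 10 inhibitory markers reached only 2.85 transcripts per 10000, beside 31.1 for the 11 radial glia markers, so their levels are given without a comparison. The 119 nuclei held 11.5 for the inhibitory, 24.4 for the radial glia and 7.21 for the Cajal-Retzius markers, against 1.26 for the last in excitatory nuclei. Of these nuclei, 105 came from 1 cluster of the Cajal-Retzius class, which held 737 nuclei and had GFRA1, UNC5C, EBF1 and GAD1 among its leading genes, so the inhibitory-marker and Cajal-Retzius-marker nuclei are largely parts of the same cluster.

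Barcodes stood apart in ways that touch these values. In the cells, 6574 of the kept barcodes (32.6%) shared their combination of wells with a barcode of another sub-library, and 407 held more than 50000 transcripts. In the nuclei, 1272 (8.94%) shared a combination and 19 held more than 50000 transcripts. The libraries had 533 well combinations in common. In the cells, 7005 pairs of barcodes shared a combination where well use alone gives 1089, and the median correlation of their profiles was 0.122, against −0.000312 for other pairs. In the nuclei there were 636 pairs where 581 are expected, with a median correlation of 0.0375.

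The promoters of 4 members are shown first because they differ in the letters of RE1, the element through which the repressor REST is known to keep neuronal genes silent outside neurons. Windows of 300 bases, from 250 before to 50 after the annotated start, were available from RefSeq (GRCh38.p14) for 33 of the 38 genes, as 50 windows. The windows for SYN1 (chrX:47619808-47620107, minus strand), RPH3A (chr12:112791498-112791797, plus strand), UNC13A (chr19:17688305-17688604, minus strand) and VAMP2 (chr17:8162827-8163126, minus strand) read 5′ to 3′ as follows, with the RE1 parts CAGCACC and GGACAG, on either strand, and TGACGTCA, the cyclic AMP response element, in capitals.
SYN1: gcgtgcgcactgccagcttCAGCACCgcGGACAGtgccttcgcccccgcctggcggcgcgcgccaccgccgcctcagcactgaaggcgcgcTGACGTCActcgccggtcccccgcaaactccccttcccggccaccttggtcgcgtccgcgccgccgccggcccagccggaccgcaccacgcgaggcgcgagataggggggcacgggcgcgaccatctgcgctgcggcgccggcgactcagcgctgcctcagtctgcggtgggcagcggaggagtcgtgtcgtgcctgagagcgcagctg
RPH3A: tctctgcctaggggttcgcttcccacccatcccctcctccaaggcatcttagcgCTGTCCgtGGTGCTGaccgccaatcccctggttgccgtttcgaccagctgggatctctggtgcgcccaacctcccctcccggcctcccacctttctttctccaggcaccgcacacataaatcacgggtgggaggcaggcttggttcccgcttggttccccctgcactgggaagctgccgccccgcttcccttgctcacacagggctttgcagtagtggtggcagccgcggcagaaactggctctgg
UNC13A: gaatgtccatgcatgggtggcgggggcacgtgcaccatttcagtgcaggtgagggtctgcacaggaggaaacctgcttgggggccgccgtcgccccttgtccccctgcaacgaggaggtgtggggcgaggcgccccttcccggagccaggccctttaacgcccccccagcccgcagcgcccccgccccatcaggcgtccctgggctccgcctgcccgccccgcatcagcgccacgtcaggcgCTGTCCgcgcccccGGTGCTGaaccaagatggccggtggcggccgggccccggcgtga
VAMP2: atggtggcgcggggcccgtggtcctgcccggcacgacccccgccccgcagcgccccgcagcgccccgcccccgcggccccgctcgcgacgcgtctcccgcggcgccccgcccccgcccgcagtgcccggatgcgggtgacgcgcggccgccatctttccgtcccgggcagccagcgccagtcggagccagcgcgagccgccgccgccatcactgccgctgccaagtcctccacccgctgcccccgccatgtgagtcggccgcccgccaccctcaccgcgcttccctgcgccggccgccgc

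In SYN1, the gene of synapsin I, the RE1 parts lay 2 bases apart on the strand of the gene, and in RPH3A 2 bases apart on the opposite strand. These were the only members among the 29 of 35116 windows (0.0826%) with the parts at a distance of 0 to 4 bases in 1 orientation. In UNC13A, the gene of a priming factor, the parts were 8 bases apart. The VAMP2 window held neither part. The parts do not overlap each other, and both strands were searched. Over the members, CAGCACC was found in 10 of 50 windows (20%), against 7.75% of all windows, and GGACAG in 13 (26%), against 20.5%. TGACGTCA, which contains TGACG, occurred in SYN1 alone among members, against 1.85% of all windows, its shorter form TGACG in 26% of member windows against 24.6%, and TATAAA in 2 windows, of PPFIA2 and SV2B (4%), against 11.5%. The median number of CG pairs was 23 in member windows and 14 in all. The windows of 1 gene overlap in several cases, and a match describes letters, not binding.

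Summed over the 38 genes, the level among the named classes was highest in excitatory-marker barcodes in cells, and in nuclei as long as the cluster of 1473 nuclei was counted. It reached 72.9 transcripts per 10000 (72.5 to 73.3) in excitatory cells, with a range over sub-libraries of 70.7 to 74.6, and 31.3 in progenitor cells and 32.3 in choroid plexus cells. In nuclei it was 100.4 in the excitatory class, or 90.8 without the cluster of 1473 nuclei, 31.9 in the progenitor class and 33.0 in the choroid plexus class. The levels of the progenitor and choroid plexus classes thus lay close together in each library. Intermediate progenitor-marker barcodes stood between them and the excitatory class, at 54.5 in cells and 62.7 in nuclei. Inhibitory-marker nuclei held 79.1 transcripts per 10000. Cajal-Retzius-marker barcodes held 98.1 in nuclei, above the excitatory class without that cluster, and 49.8 in cells.

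First-round wells, whose relation to samples and conditions is not known, gave the spread around these values. The excitatory level ranged from 58.9 to 85.4 (median 71.4) over the 11 wells with at least 50 excitatory cells, and the progenitor level from 20.0 to 49.6 (median 29.96) over 25 wells. In nuclei the excitatory level ranged from 89.3 to 115.0 (median 95.8) and the progenitor level from 29.2 to 34.0 (median 31.2), each over 12 wells. The well ranges of these classes did not overlap in either library. Within wells that held at least 50 barcodes of both classes, the excitatory level was the higher in 8 of 8 wells of the cells and 12 of 12 of the nuclei.

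**Figure D1:**
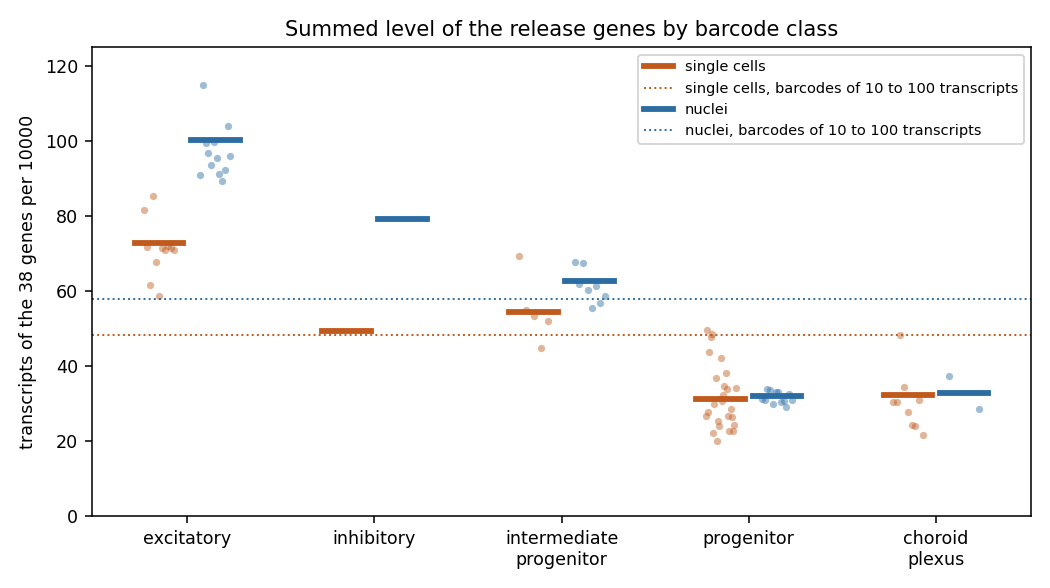
Transcripts of the 38 release genes per 10000 transcripts (y axis) in 5 barcode classes (x axis), for single cells and nuclei. Bars give the class sum, points the first-round wells with at least 50 barcodes of the class and dotted lines the barcodes of 10 to 100 transcripts, and the excitatory wells of each library lie above its progenitor wells.

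These levels were set beside those of free RNA, and some of them differed by depth. Barcodes of 10 to 100 transcripts, taken to hold mostly RNA from outside cells, held 48.4 transcripts of the 38 genes per 10000 in the library of cells and 58.0 in that of nuclei, above the progenitor and choroid plexus classes and below the excitatory class. In cells of 1000 to 2000 transcripts the summed level was 41.2 in progenitors and 43.7 in choroid plexus, against 30.5 in each class above 5000 transcripts. For SNAP25, a SNARE of the cell membrane, choroid plexus cells fell from 0.841 to 0.338 transcripts per 10000 between the same depths. Between the same depths, nuclei rose from 30.2 to 32.9 in progenitors, from 83.5 to 105.4 in the excitatory class and from 22.8, in 7 nuclei, to 33.5 in choroid plexus. The part of free RNA in the low-depth levels was not tested. After each barcode was thinned to 1000 transcripts, the median number of the 38 genes detected was 5 in excitatory, 4 in intermediate progenitor, and 3 in progenitor and in choroid plexus cells. In nuclei it was 6, 4, 2 and 2 in the same order.

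Between excitatory and progenitor cells, 22 of the 38 members were at least 2-fold higher in the excitatory class, where 9.47% of the 28471 genes with at least 50 counts were, and 0 were at least 2-fold lower, against 11% of all genes. In nuclei, 26 members were higher, against 11.8% of 20150 genes, and 2 were lower, against 17.6%. Without the cluster of 1473 nuclei these counts were 26 and 1. All 38 members passed the count minimum in both libraries. The median log2 fold of the members was 1.25 in cells and 1.53 in nuclei, beside −0.03 and −0.17 over all genes. The cell median was 0.84 and 0.82 at Leiden resolutions 0.5 and 2. The remaining 16 members in cells and 10 in nuclei differed by less than 2-fold.

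**Figure D2:**
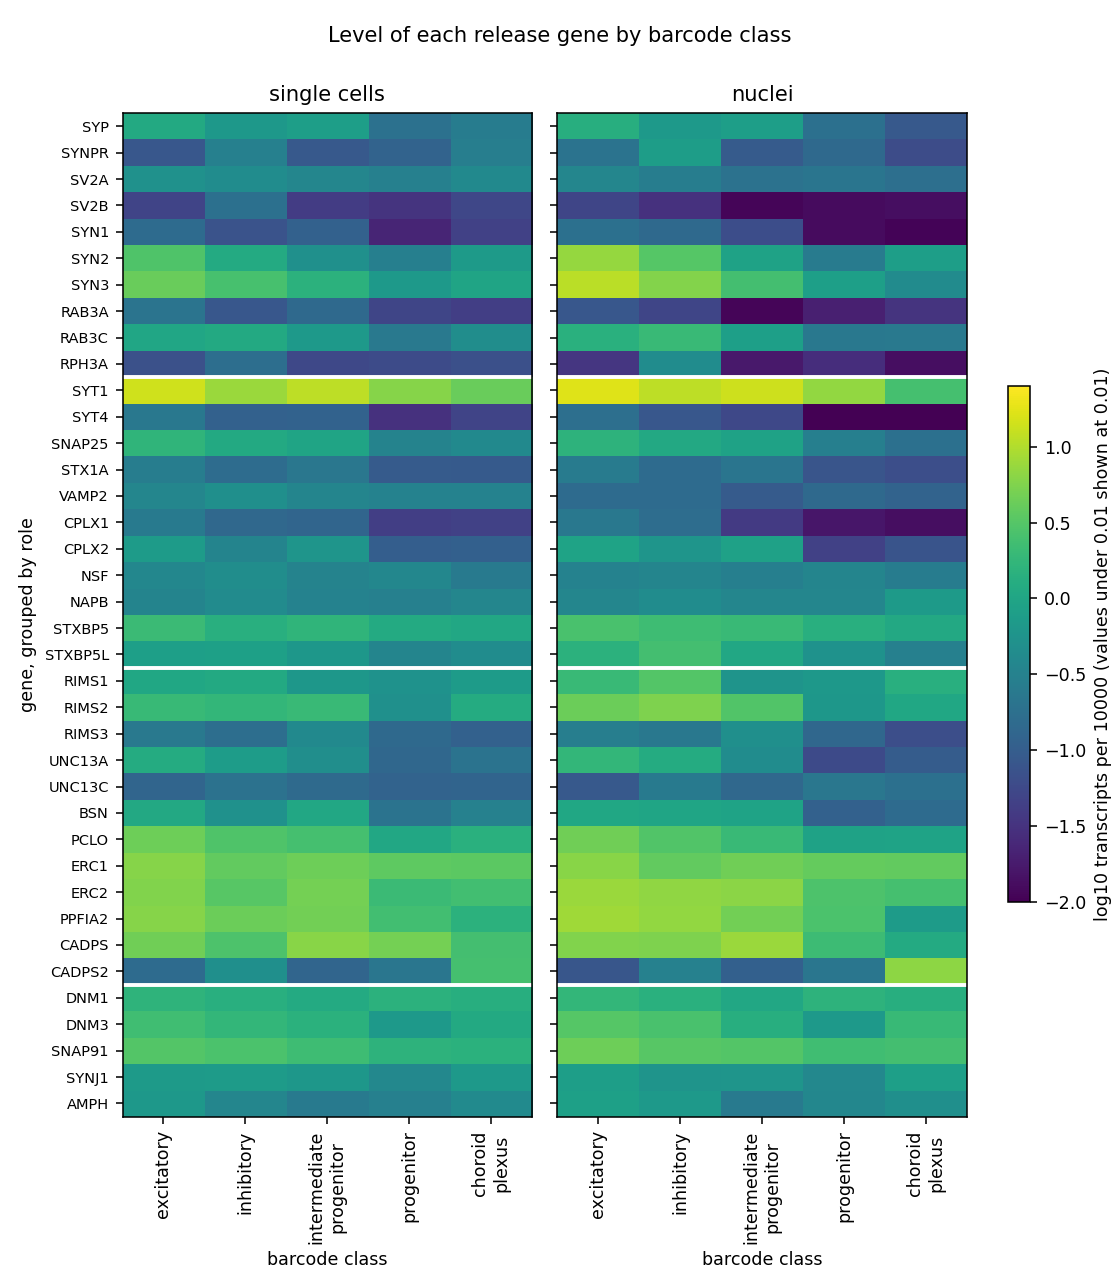
Level of each of the 38 genes (rows, grouped by role from vesicle proteins at the top to endocytosis at the bottom) in 5 barcode classes, as log10 transcripts per 10000, for single cells and nuclei. Most genes are brightest in the excitatory column, and CADPS2 has its own highest level in the choroid plexus column.

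Among the 10 vesicle proteins, 6 were at least 2-fold higher in excitatory than in progenitor cells (9.47% of all genes) and 7 in nuclei (11.8%), with median log2 folds of 2.06 and 2.36. Synapsins coat the vesicle and tether it in the reserve pool. SYN2 reached 2.89 transcripts per 10000 in excitatory cells against 0.289 in progenitor cells, and 7.35 against 0.260 in nuclei. The cluster of 1473 nuclei carried much of the last level, and without it SYN2 was at 3.98 in excitatory nuclei, a log2 fold over progenitors of 3.94. SYN3 reached 4.22 against 0.671 in cells and 11.2 against 0.830 in nuclei. SYN1 was at 0.155 against 0.0221 in cells and 0.178 against 0.0125 in nuclei. All 3 synapsins were thus higher in excitatory barcodes of both libraries, with log2 folds of 3.32 and 4.82 for SYN2 (intervals 3.22 to 3.42 and 4.71 to 4.94), 2.65 and 3.76 for SYN3, and 2.80 and 3.84 for SYN1. After thinning, a SYN2 transcript was found in 41.1% of excitatory and 6.05% of choroid plexus nuclei, whose median depths were 3980 and 9708 transcripts, and in 21.6% and 8.20% of the cells of these classes, at 7265 and 2332.5. SYN2 and SYN3 overlap TIMP4 and TIMP3 on the opposite strand, and SYN1 overlaps ARAF and TIMP1; whether the counting used strand is not given in the sources used here.

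SYP, the gene of synaptophysin, an abundant membrane protein of the vesicle, was at 1.17 transcripts per 10000 in excitatory and 0.183 in progenitor cells, and at 1.34 and 0.180 in nuclei. Its log2 fold was 2.68 (2.55 to 2.81) in cells and 2.89 (2.75 to 3.05) in nuclei, and it was higher in the excitatory class in every well that held both classes. RAB3A and RAB3C, small GTPases of the vesicle surface, had log2 folds of 2.02 and 2.11 in cells and 2.08 and 2.65 in nuclei. RAB3A was sparse, with 134 transcripts in all excitatory nuclei and 50 in all progenitor nuclei, and it overlaps MPV17L2 on the opposite strand. RAB3C was at 1.43 transcripts per 10000 in excitatory and 2.03 in inhibitory nuclei.

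The remaining vesicle genes differed less between excitatory and progenitor barcodes. SV2A, a glycoprotein found on most synaptic vesicles, was at 0.522 and 0.299 transcripts per 10000 in cells and at 0.367 and 0.208 in nuclei, with log2 folds of 0.80 and 0.82. RPH3A, the gene of the RAB3 effector rabphilin, had log2 folds of 0.26 (−0.07 to 0.58) and 0.28 (−0.26 to 0.81), intervals that include 0. SV2B passed the 2-fold limit in nuclei alone, at 2.04 (1.43 to 2.69) from 81 and 31 transcripts, with 0.61 in cells. SYNPR, the gene of the synaptophysin relative synaptoporin, was lower by 0.52 on the log2 scale in excitatory cells and higher by 0.44 in nuclei. Among progenitor cells it was at 0.204 in a cluster of 714 led by SV2C and at 0.0849 to 0.130 in the others.

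Of the 11 calcium sensors and SNARE machinery genes, 7 were at least 2-fold higher in excitatory than in progenitor barcodes in each library, with medians of 1.25 and 1.5. Over all genes the shares were 9.47% in cells and 11.8% in nuclei. SYT1, the calcium sensor of fast release, was at 14.3 transcripts per 10000 in excitatory, 6.03 in progenitor and 4.25 in choroid plexus cells. In nuclei it was at 16.9, 6.99 and 2.48. Barcodes of 10 to 100 transcripts held SYT1 at 8.95 in the library of cells and 10.2 in that of nuclei, above the progenitor and choroid plexus classes. Its log2 fold over progenitors was 1.25 (1.22 to 1.28) in cells and 1.27 (1.25 to 1.30) in nuclei. After thinning it was found in 72.2% of excitatory and 41.4% of choroid plexus cells, and in 68.7% and 16.7% of nuclei. SYT4, a synaptotagmin of other vesicle types, was far less often counted, at 0.230 against 0.0307 in cells and 0.172 against 0.00603 in nuclei, where 15 transcripts were counted over all progenitor nuclei. Its log2 folds of 2.90 (2.58 to 3.24) and 4.84 (4.09 to 5.70) were the widest of the role in their intervals.

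The membrane SNAREs followed. SNAP25 was at 1.70 in excitatory and 0.332 in progenitor cells, and at 1.57 and 0.290 in nuclei, with log2 folds of 2.36 and 2.44. STX1A, the gene of syntaxin 1A, was at 0.276 and 0.0959 in cells and at 0.258 and 0.0779 in nuclei, with log2 folds of 1.53 and 1.73. VAMP2, the gene of the vesicle SNARE synaptobrevin 2, stood apart from its partners, at 0.358 and 0.317 in cells and 0.155 and 0.147 in nuclei. Its log2 fold was 0.18 (0.03 to 0.32) in cells and 0.08 (−0.16 to 0.32) in nuclei, and the excitatory class was the higher in 4 of 8 wells of the cells and 5 of 12 of the nuclei. Without the cluster of 1473 nuclei, the VAMP2 fold in nuclei was 0.37. VAMP2 shares its locus with another coding gene model on the same strand, which can divide its counts. Complexins clamp and assist the SNARE bundle. CPLX2 had log2 folds of 2.82 (2.65 to 3.00) and 4.39 (4.11 to 4.67), from 0.742 against 0.105 transcripts per 10000 in cells and 0.949 against 0.0454 in nuclei. CPLX1 had 2.50 and 3.84. By cluster, SNAP25 was highest among cells, at 2.95, in an unnamed cluster of 1017 with HK2 and PDK1 among its leading genes. VAMP2 was at 0.583 there, also its highest. That cluster was the highest cell cluster for STX1A, CPLX1, NSF, NAPB, UNC13A, PCLO, DNM3 and SYNJ1 too. For UNC13A its 1.33 lay near the 1.22 of the excitatory cluster. In nuclei SNAP25 was highest, at 2.79, in the excitatory cluster of 723 led by hypoxia and heat-shock genes.

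NSF, the ATPase that takes SNARE bundles apart after fusion, and NAPB, an adaptor that brings it to them, did not differ beyond counting error in nuclei as long as the cluster of 1473 nuclei was counted. NSF was at 0.372 and 0.370 transcripts per 10000 in excitatory and progenitor cells and at 0.324 and 0.348 in nuclei, with log2 folds of 0.01 (−0.13 to 0.14) and −0.10 (−0.26 to 0.06). NAPB had 0.16 (0.02 to 0.31) in cells and −0.01 (−0.16 to 0.14) in nuclei. Without that cluster the log2 folds in nuclei were 0.20 for NSF and 0.27 for NAPB. Wells gave no common direction, as excitatory NSF was the higher in 4 of 8 wells of the cells and 5 of 12 of the nuclei, and excitatory NAPB in 2 of 8 and 7 of 12. In choroid plexus nuclei NAPB was at 0.702 against 0.360 in excitatory nuclei, a log2 fold of −0.96, or −0.69 without the cluster of 1473 nuclei. In cells these classes held 0.367 and 0.339. The tomosyns, which bind syntaxin and restrain priming, differed from each other: STXBP5L had log2 folds of 1.24 and 1.5, and STXBP5 0.81 and 0.94. STXBP5L was at 2.40 in inhibitory against 1.54 in excitatory nuclei, and at 3.67 and 2.64 in the Cajal-Retzius clusters of the nuclei.

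Among the 12 priming and active zone genes, 6 were at least 2-fold higher in excitatory cells (9.47% of all genes) and 9 in excitatory nuclei (11.8%), with medians of 1.18 and 1.52. In nuclei 2 of the 12 were at least 2-fold lower, near the share of all genes, 17.6%. UNC13A, the priming factor that opens syntaxin, was at 1.22 transcripts per 10000 in excitatory and 0.137 in progenitor cells. In nuclei it was at 1.76 and 0.0574. Its log2 folds of 3.15 (3.00 to 3.30) and 4.94 (4.69 to 5.19) were followed by a share after thinning of 17.3% in excitatory and 0.288% in choroid plexus nuclei, and of 10.1% and 2.50% in cells. BSN and PCLO encode bassoon and piccolo, the giant scaffolds of the active zone. BSN was at 1.11 and 0.196 in cells and at 1.06 and 0.112 in nuclei, with log2 folds of 2.50 and 3.24. PCLO was at 4.43 and 1.09 in cells and 4.65 and 0.910 in nuclei, with 2.03 and 2.35. Both were higher in the excitatory class in all wells of both libraries that held the 2 classes.

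RIM proteins tie vesicles to calcium channels and to RAB3. RIMS2 was at 1.96 against 0.501 in cells and 4.31 against 0.619 in nuclei, with log2 folds of 1.97 and 2.80. RIMS1 had 0.98 and 1.65, and RIMS3, a short RIM, 0.71 and 1.07. All 3 had larger log2 folds in nuclei than in cells. RIMS1 and RIMS2 were higher in inhibitory than in excitatory nuclei, at 3.06 against 2.03 and 5.46 against 4.31. The 2 Cajal-Retzius clusters of the nuclei held RIMS1 at 4.96 and 3.98 and RIMS2 at 8.41 and 8.11. The scaffolds ERC2 and PPFIA2, the gene of liprin-alpha-2, had log2 folds of 1.45 and 1.37 in cells and 1.48 and 1.56 in nuclei, and PPFIA2 overlaps ACSS3 on the opposite strand. ERC1, a relative of ERC2 used in many tissues, had 0.75 and 0.65, from 6.06 against 3.59 transcripts per 10000 in cells and 6.14 against 3.92 in nuclei. UNC13C, CADPS and CADPS2 departed from the order of excitatory over progenitor barcodes in at least 1 library and are described with the exceptions.

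The 5 endocytosis genes had the smallest role medians, 1.00 in cells and 1.08 in nuclei, with 3 of 5 at least 2-fold higher in each library (9.47% and 11.8% of all genes). DNM3, a dynamin of neurons and testis, was at 2.26 against 0.666 in cells and 3.21 against 0.690 in nuclei, with log2 folds of 1.76 (1.69 to 1.84) and 2.22 (2.14 to 2.30). DNM1, the dynamin of the synapse, was at 1.61 against 1.51 in cells and 1.75 against 1.59 in nuclei, with 0.10 (0.03 to 0.16) and 0.14 (0.07 to 0.21). The paralogs thus differed, DNM1 being present at similar levels in neurons and progenitors. DNM1 overlaps CIZ1 and DNM3 overlaps PIGC, each on the opposite strand. AMPH, the gene of amphiphysin, had 1.10 and 1.17, SNAP91, a clathrin adaptor, 1.00 and 0.98, and SYNJ1, the phosphatase synaptojanin 1, 0.89 and 1.08.

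**Figure D3:**
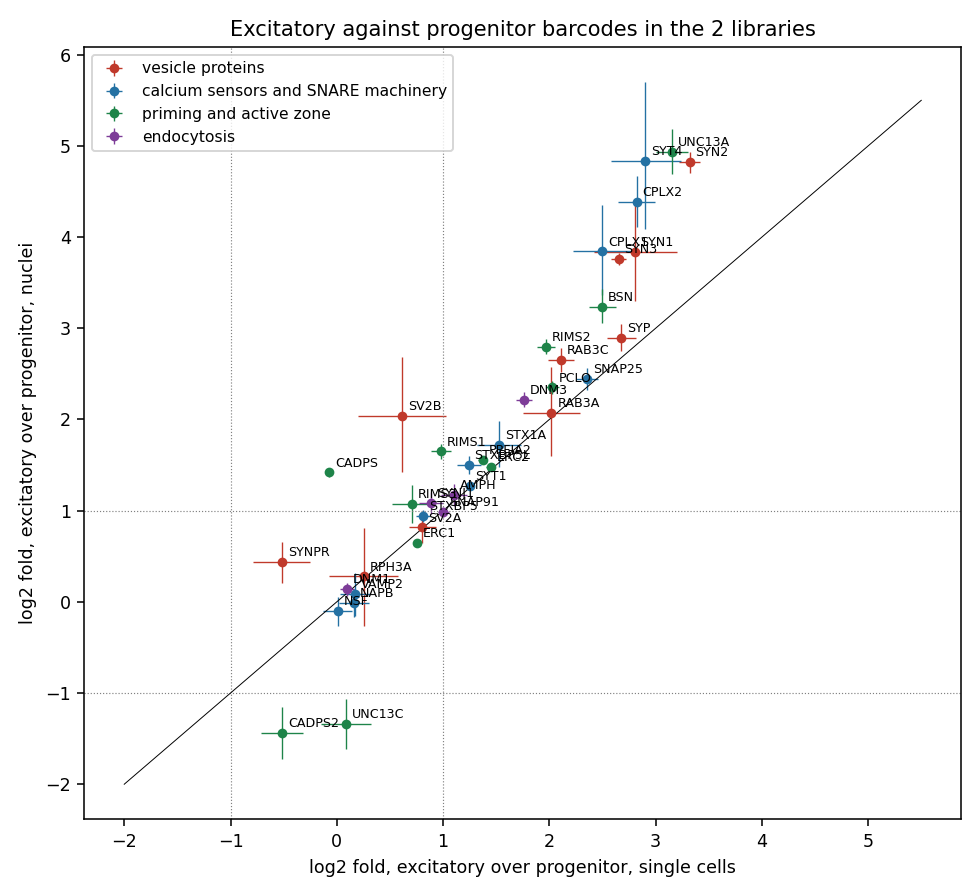
Log2 fold of each release gene in excitatory over progenitor barcodes, in single cells (x axis) and nuclei (y axis), with 95% counting intervals and colors by role. UNC13A, SYN2 and SYT4 lie at the upper right, VAMP2, NAPB, NSF and DNM1 near 0 on both axes, and CADPS2 below 0 on both, while dotted lines mark a 2-fold difference and the solid line equality.

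Fewer members separated the excitatory from the intermediate progenitor-marker class, a comparison added after the data were seen. In cells the dividing markers of the latter class, at 2.37, were near the excitatory 1.88. In cells, 4 of 38 members were at least 2-fold higher in the excitatory class (10.4% of all genes) and 0 lower (6.54%). In nuclei, 14 were higher (13.6%) and 0 lower (10.7%). The member share was near the background in cells and above it in nuclei. The 4 higher in both were SYN2 (log2 fold 2.50 in cells and 3.04 in nuclei), SYN3 (1.47 and 2.23), AMPH (1.40 and 1.75) and UNC13A (1.35 and 1.97). SYN2 was at 0.509 transcripts per 10000 in intermediate progenitor cells and at 0.894 in nuclei, UNC13A at 0.475 and 0.451. The 10 others higher in nuclei alone included CPLX1 (2.62), RIMS1 (1.84) and PCLO (1.22). Some members with large folds over progenitors differed by less than 2-fold here. BSN was at 1.10 there and 1.11 in excitatory cells, with log2 folds of 0.01 (−0.11 to 0.12) in cells and 0.17 (0.02 to 0.31) in nuclei. CPLX2 had 0.32 and 0.12, SYT1 0.33 and 0.28, and ERC2 0.23 and 0.26. RIMS3 was higher in intermediate progenitor-marker barcodes, at 0.414 against 0.234 in cells and 0.486 against 0.287 in nuclei. Its log2 folds were −0.82 (−1.03 to −0.61) and −0.76 (−0.99 to −0.54). The nuclei of this class came from 2 clusters, of 757 nuclei with EBF2 and CNTN2 and of 548 with EOMES among their leading genes. RIMS3 was at 0.641 in the cluster of 757, while the next cluster of the nuclei, an excitatory one, held 0.353. BSN was at 1.40 in the cluster of 757, against 0.943 in the class. The nuclei folds of RIMS3 and BSN thus mix unlike clusters. By role, 7 of 10 vesicle genes but 2 of 11 SNARE genes, 3 of 12 active zone genes and 2 of 5 endocytosis genes were at least 2-fold higher in excitatory than in intermediate progenitor nuclei. Of the vesicle genes, SV2B and RAB3A rested on 6 and RPH3A on 9 transcripts in the intermediate progenitor nuclei, the interval of RPH3A includes 0, and the difference between roles was not tested.

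Inhibitory-marker nuclei carried most of the same genes above progenitors, with 23 of 38 at least 2-fold higher (20% of all genes) and 0 lower (10.2%), a median log2 fold of 1.36 and 0.03 over all genes. UNC13A reached 1.23 transcripts per 10000 (log2 fold 4.42, 4.06 to 4.78), CPLX2 0.599 (3.72), SYN2 3.20 (3.62) and RAB3C 2.03 (3.16). By role, 9 of 10 vesicle genes, 5 of 11 SNARE genes, 8 of 12 active zone genes and 1 of 5 endocytosis genes were at least 2-fold higher. The vesicle genes include SV2B and RAB3A, with 3 and 5 transcripts in these nuclei, whose intervals include 0 (−1.04 to 2.99 and −0.32 to 2.68). Against inhibitory nuclei, excitatory nuclei were at least 2-fold higher for 2 members (6.97% of all genes) and lower for 4 (23.4%). The member share in the lower direction lay below the background. The higher count, near the background, was 6 without the second sub-library. The 2 were SYN2 (1.20, 1.04 to 1.37), which had 0.34 without the cluster of 1473 nuclei, and SYT4 (1.06, 0.06 to 2.29, from 8 transcripts in the inhibitory nuclei). The 4 were RPH3A (−3.70, −4.31 to −3.09), SYNPR (−1.99), CADPS2 (−1.94) and UNC13C (−1.5).

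Against choroid plexus cells, 19 of 38 members were at least 2-fold higher in excitatory cells (11% of all genes) and 2 lower (16.3%). In nuclei 26 were higher (21%) and 2 lower (19.6%). The lower members were CADPS2 in both libraries, SYNPR in cells and UNC13C in nuclei. UNC13C stood at the 2-fold limit, and the nuclei count was 1 with single-barcode classes, equal weights, the deepest barcodes, at most 50000 transcripts or without the cluster of 1473 nuclei, and 1 to 3 with a sub-library left out. The medians were 1.00 in cells and 1.96 in nuclei, beside −0.02 and 0.11 over all genes. The nuclei median was 1.21 and 1.24 at Leiden resolutions 0.5 and 2. The largest log2 folds in nuclei were those of SYN3 (4.67, 4.45 to 4.90), SYT4 (4.42, from 3 transcripts in the choroid plexus nuclei), UNC13A (4.18) and CPLX1 (4.10, from 5). In cells they were CPLX2 (2.75), UNC13A (2.61) and CPLX1 (2.43). All comparisons of excitatory barcodes use the same excitatory class and are not independent of each other.

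CADPS2 was the exception in size. Its protein, CAPS2, primes dense-core vesicles, the carriers of neuropeptides and growth factors, and the gene lies at chr7:122318411-122886759 on the minus strand of GRCh38. It reached 2.50 transcripts per 10000 in choroid plexus cells and 6.57 in choroid plexus nuclei, against 0.153 and 0.0809 in the excitatory class and 0.219 in both progenitor classes. The log2 folds of excitatory over choroid plexus barcodes were −4.03 (−4.20 to −3.86) and −6.34 (−6.61 to −6.09). After thinning, a CADPS2 transcript was found in 41.5% of choroid plexus and 1.01% of excitatory nuclei, and in 14.4% and 2.06% of cells. Over the 9 wells with enough choroid plexus cells the level ran from 1.93 to 5.87 (median 2.15), with every well above the highest excitatory well, 0.292. All 3 choroid plexus clusters of the cells held it, at 1.22, 2.78 and 1.95. The highest cell cluster for CADPS2 was an unnamed one of 33 cells with RSPO3 among its leading genes, at 3.65 from 15 transcripts. In nuclei the second cluster, at 1.67, was an unnamed one of 934 nuclei, in which 8 of the 9 choroid plexus markers reached the naming level. It was left unnamed because RSPO2 and LMX1A, markers of another list, were among its leading genes. Cajal-Retzius-marker cells carried 1.84 CADPS2 transcripts per 10000 and the nuclei of that name 0.302. The cell class held the choroid plexus markers at 26.8 transcripts per 10000, near the 22.2 over all kept cells. The part of choroid plexus RNA in its CADPS2 level was not tested. Relative to progenitors, CADPS2 was lower in excitatory barcodes, by 0.52 on the log2 scale in cells and by 1.43 in nuclei, and RNF133 and RNF148 lie within it on the same strand.

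CADPS, the paralog that primes the same vesicles, was, among the named classes, highest in intermediate progenitor-marker barcodes in both libraries. It was at 6.20 transcripts per 10000 there in cells and 7.66 in nuclei, against 4.63 and 5.75 in the excitatory class. In nuclei, 1 of the 2 intermediate progenitor clusters, that of 757 nuclei, held 9.50. The other, with EOMES among its leading genes, lay below an excitatory cluster at 7.76. Progenitors differed between libraries, with 4.86 in cells and 2.15 in nuclei, so that the log2 fold of excitatory over progenitor barcodes was −0.071 (−0.11 to −0.03) in cells and 1.42 (1.37 to 1.47) in nuclei. A cluster of 714 progenitor cells from 25 wells, led by SV2C, GRIK1 and ADAMTS19, held CADPS at 17.4 (17.1 to 17.7), while the other 3 progenitor clusters held 1.85 to 2.87. Without that cluster the log2 fold in cells was 1.22, and the median of the members was 1.32. The count of members at least 2-fold higher was again 22, now with CADPS, so another member had left it. An unnamed cluster of 982 cells, led by ADAMTS19, NRG1 and SV2C, held it at 13.7. By wells of the cells, progenitor CADPS ran from 0.513 to 21.7 (median 2.04) and excitatory CADPS from 2.63 to 8.49 (median 3.82). The excitatory class was the higher in 7 of 8 wells of the cells and 12 of 12 of the nuclei, so within wells the direction in cells was opposite to that of the class sums.

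SYNPR, SV2B, RPH3A and UNC13C were sparse genes with their highest levels outside the excitatory class. An unnamed cluster of 1089 cells, with DOCK2 and CCDC26 among its leading genes, was the highest cell cluster for RPH3A, at 0.375, and UNC13C, at 0.455. For SYNPR, at 0.348, and SV2B, at 0.165, it was the second. The inhibitory cells held SYNPR at 0.299 and RPH3A at 0.167. SYNPR was at 0.0849 transcripts per 10000 in excitatory and 0.283 in choroid plexus cells, but at 0.195 and 0.0619 in nuclei, where the highest levels were those of the inhibitory (0.774) and Cajal-Retzius (0.737) classes, most of whose nuclei came from the same cluster. The order of excitatory and choroid plexus barcodes was thus opposite in the libraries. The choroid plexus level came from 2 clusters, at 0.429 and 0.278, with 0.0409 in the last, and its 9 wells ran from 0.0681 to 1.05 (median 0.257). RPH3A was at 0.444 in inhibitory and 0.346 in Cajal-Retzius nuclei against 0.0341 in excitatory and 0.0281 in progenitor nuclei, a log2 fold of inhibitory over progenitor nuclei of 3.98 (3.40 to 4.55) from 43 and 70 transcripts. SV2B was at 1.38 in Cajal-Retzius cells and 0.237 in the nuclei, against 0.0498 and 0.0512 in the excitatory class. It was among the leading genes of the Cajal-Retzius cluster of the cells, of which 1 well held 43.0%. UNC13C, a relative of UNC13A with a narrow range of neurons, was lower in excitatory than in progenitor nuclei by 1.34 on the log2 scale, at 0.0878 against 0.222, while in cells it was at 0.128 and 0.120. Without the cluster of 1473 nuclei, UNC13C was lower in excitatory nuclei by less than 2-fold.

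**Figure D4:**
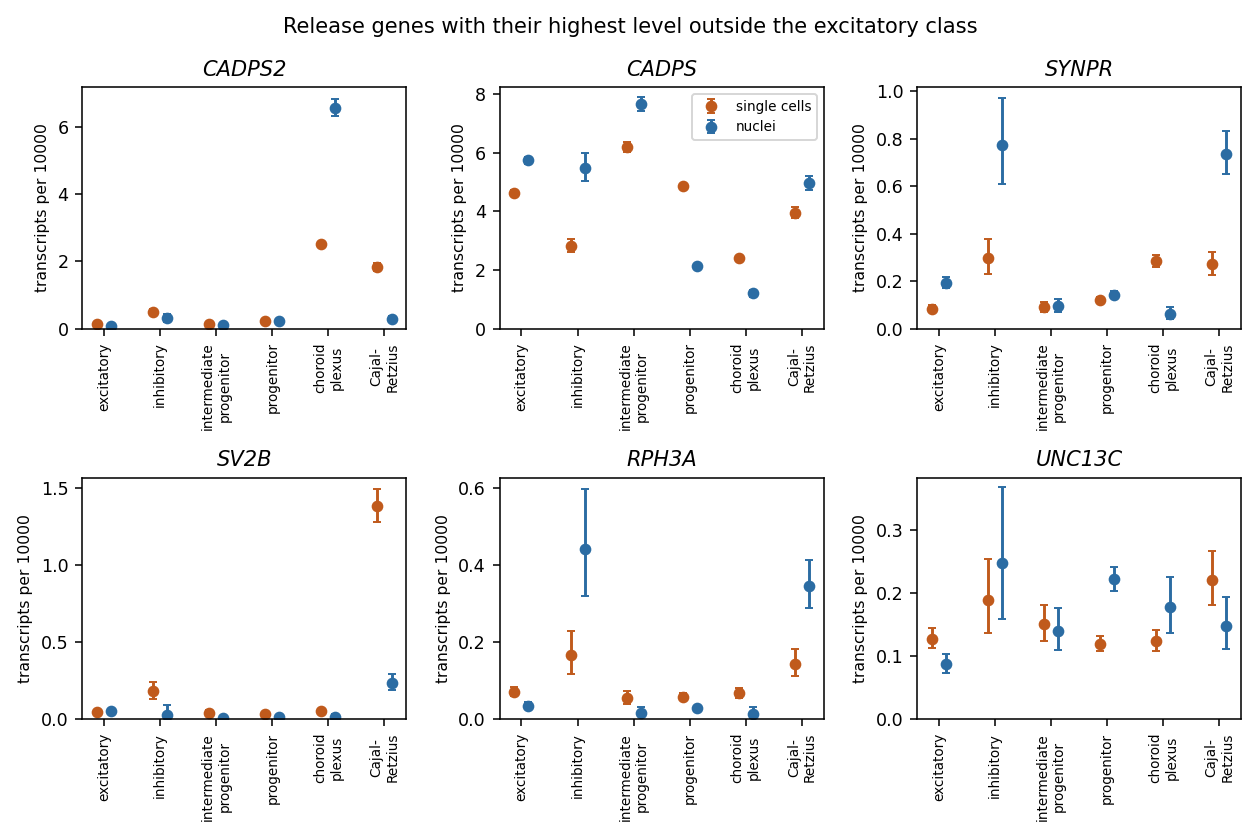
Transcripts per 10000 (y axes, each from 0) of CADPS2, CADPS, SYNPR, SV2B, RPH3A and UNC13C in 6 barcode classes, for single cells and nuclei, with 95% counting intervals. Among these class levels, CADPS2 peaks in choroid plexus barcodes, CADPS in intermediate progenitor-marker barcodes and SV2B in Cajal-Retzius barcodes, while RPH3A in nuclei is high in the inhibitory and Cajal-Retzius classes.

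Excitatory nuclei and excitatory cells were set side by side without a test, since the libraries differ in preparation, days and conditions, which cannot be told apart. SYN3 was higher in nuclei by a log2 ratio of 1.41 (1.38 to 1.45), SYN2 by 1.35, SYNPR by 1.20 and RIMS2 by 1.14. Without the cluster of 1473 nuclei these ratios were 1.02, 0.46, 1.15 and 0.98. Lower in nuclei were RAB3A (−1.28, −1.57 to −0.99), VAMP2 (−1.21), RPH3A (−1.05) and CADPS2 (−0.92). The median over 20146 genes was −0.37. By the length of the gene from first to last base, the 10 members of at most 50 kb had a median of −0.09 with 4 higher in nuclei, the 10 of 50 to 200 kb a median of 0.26 with 7 higher, and the 18 above 200 kb a median of 0.40 with 15 higher. All protein-coding genes of the same length classes had medians of −0.49, −0.20 and 0.07, so the order by length was shared with other genes. VAMP2 spans 4.40 kb and RAB3A 7.26 kb, whereas SYN3 spans 550.6 kb and RIMS2 753.8 kb. RPH3A and CADPS2, also lower in nuclei, went against this order, at 328.5 kb and 568.3 kb. SYN3 also varied among excitatory nuclei, with 30.4 transcripts per 10000 in a cluster of 137 nuclei and 13.5 in the next.

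**Figure D5:**
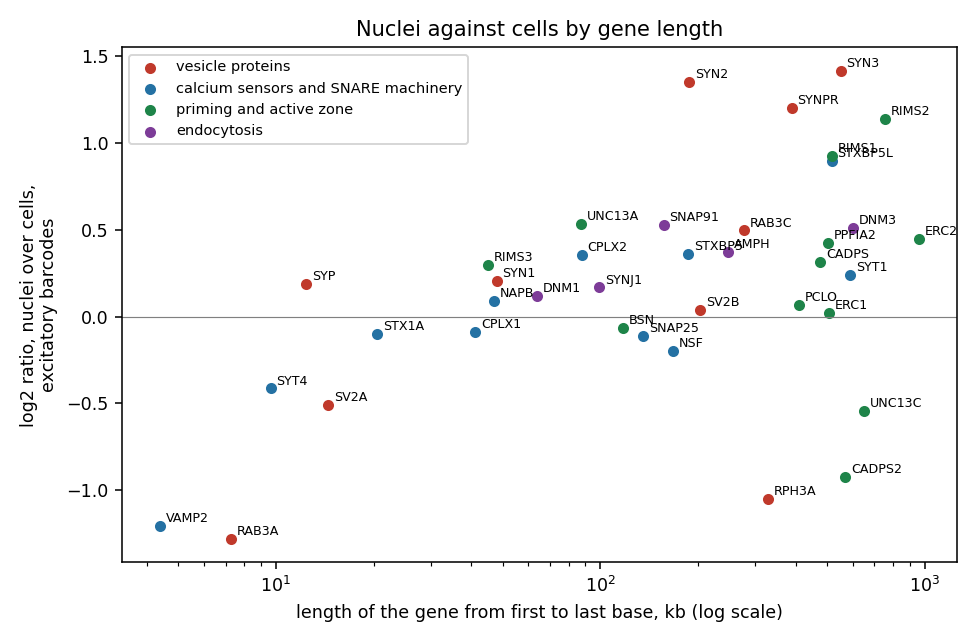
Log2 ratio of the level in excitatory nuclei over excitatory cells (y axis) against the length of the gene in kb on a log scale (x axis), 1 point per release gene, colored by role. The short genes RAB3A and VAMP2 lie lowest, the long genes SYN3, SYNPR and RIMS2 are among the highest, and the long genes RPH3A, CADPS2 and UNC13C lie below 0.

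A second list of 42 other release genes gave a more divided picture between excitatory and progenitor barcodes. In cells, 17 of 42 were at least 2-fold higher and 6 lower, where 9.47% and 11% of all genes were, and in nuclei 19 and 7 of the 40 that passed the count minimum, against 11.8% and 17.6%. The medians were 0.55 and 0.54. SNCB, the gene of beta-synuclein, had log2 folds of 3.73 and 5.41, and the synaptotagmins SYT7, SYT5 and SYT13 had 3.45, 2.97 and 2.67 in cells and 4.37, 4.65 and 3.82 in nuclei. Lower in excitatory barcodes were SYTL4 (−2.10 and −2.99) and RAB3B (−2.11 and −1.63), while SV2C was lower in cells alone (−2.44, with −0.10 in nuclei). SV2C was the first leading gene of the cluster of 714 progenitor cells, and its fold without that cluster is not given here. Of 22 relatives of the members that serve fusion and endocytosis outside neurons, 3 were at least 2-fold higher and 2 lower in each library, to be read against the same shares of all genes, with medians of 0.02 and 0.07. The 3 were BIN1, STX3 and STXBP2, and the 2 were STXBP6 (−2.71 and −3.33) and STXBP3 (−1.15 and −1.18). DNM2, the dynamin of all tissues, was at 0.01 and 0.05.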

How the data were processed

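The deposited values were counts of transcripts per barcode and gene. The authors obtained them with the split-seq pipeline of Parse Biosciences and GRCh38, after assigning reads to sub-libraries (8 for the cells, 2 for the nuclei) in demuxFQ. The tables are unfiltered, so the doublet and background steps of the study are not part of them.

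The 38 genes and the other gene lists were chosen with earlier results of these data known. All 38 members are described, in 4 roles fixed with the list, together with 42 other release genes and 22 relatives used outside neurons, of which those with the largest folds and DNM2 are named. Positions are from GENCODE release 44 and promoters from RefSeq.

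Clusters used scanpy 1.11.5 (Python 3.11.15, scipy 1.17.1, numpy 2.4.6) with 2000 variable genes without the members, 30 components, 15 neighbours and Leiden resolution 1. A cluster was named when at least 3 markers and 50% of a list reached 1.5 times the level of all other barcodes, unless its 10 leading genes held at least 2 more markers of another list than of its own; dividing clusters also needed 3 radial glia markers. Scrublet called 0 doublets in each library, which has to be read as a caller that did not work, so no barcode was left out as a doublet in the values given. Inhibitory-marker barcodes needed 3 transcripts of 2 markers and 3 times the relative level of each other list, a rule chosen after the data were seen. Levels are counts summed per class, with exact Poisson intervals, and folds have exact conditional binomial intervals. Shares are after thinning to 1000 transcripts. A gene was called higher or lower at a fold of 2 with at least 50 counts. The fold and interval functions were tested on simulated Poisson counts, while the clustering, naming and inhibitory-marker rules were not.

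Alternatives were other Leiden resolutions, single-barcode classes, doublet scores, depth and mitochondrial limits, equal weights, background subtraction, other count and fold limits and each sub-library left out. Added after the data were seen were the deepest barcode of each well combination, at most 50000 transcripts, more than 5000 transcripts, nuclei without the heat-shock clusters or the largest excitatory cluster, and cells without the SV2C-led cluster.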

Additional observations from a re-analysis of the deposited data

Results flagged for a closer look

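The folds of SYNPR and CADPS, from class sums, had opposite signs in the 2 libraries, with intervals on either side of 0. The difference between the libraries was not tested, since each is 1 sample. For SYNPR, the log2 fold of excitatory over progenitor barcodes was −0.52 (−0.79 to −0.25) in cells and 0.44 (0.21 to 0.66) in nuclei, and that of excitatory over choroid plexus barcodes was −1.74 (−1.998 to −1.48) in cells and 1.65 (1.04 to 2.33) in nuclei. The choroid plexus level of SYNPR rested on 522 transcripts in cells and 23 in nuclei. Among progenitor cells, SYNPR was at 0.204 in the cluster led by SV2C and at 0.0849, 0.108 and 0.130 in the others. A SYNPR fold without that cluster is not given here, so its sign in cells may depend on it. For CADPS, the log2 fold of excitatory over progenitor barcodes was −0.071 (−0.11 to −0.03) in cells and 1.42 (1.37 to 1.47) in nuclei, and it was 1.22 in cells without the progenitor cluster led by SV2C. Within wells, excitatory CADPS was above progenitor CADPS in 7 of 8 wells of the cells and 12 of 12 of the nuclei, and SYNPR in 4 of 8 and 9 of 12.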

How the results depend on the processing

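For excitatory against progenitor and against choroid plexus barcodes, no member with a fold of at least 2 changed sign under the alternatives run gene by gene, which do not include the left-out sub-libraries. Leaving out each sub-library in turn gave 21 to 23 members higher in excitatory than in progenitor cells and 26 to 26 in nuclei, with 0 to 0 and 2 to 2 lower. It gave 19 to 20 higher and 2 to 2 lower against choroid plexus in cells, 21 to 26 and 1 to 3 in nuclei, and 22 to 24 higher and 0 to 0 lower for inhibitory against progenitor nuclei. Against inhibitory nuclei it gave 2 to 6 higher and 4 to 4 lower, and against intermediate progenitors 4 to 6 higher and 0 to 0 lower in cells and 12 to 15 and 0 to 1 in nuclei. At a fold of 4, the members higher in excitatory than in progenitor barcodes were 13 in cells (2.55% of all genes) and 16 in nuclei (5.01%), with 0 lower in nuclei (7.22%). At the same fold, 10 were higher (2.62%) and 1 lower (6.34%) against choroid plexus in cells, 1 was lower in nuclei (10.2%), 14 were higher in inhibitory than in progenitor nuclei (7.87%), 0 higher (1.23%) and 1 lower (9.29%) against inhibitory nuclei, and 1 in cells (2.07%) and 5 in nuclei (4.42%) higher against intermediate progenitors. At a fold of 1.5, 10 members were higher (20.8%) and 1 lower (14.3%) against intermediate progenitors in cells, 2 lower in nuclei (18.9%), and 10 higher against inhibitory nuclei (13.9%). The count lower against choroid plexus nuclei was 1 with single-barcode classes, equal weights, the deepest barcodes and at most 50000 transcripts. The count higher against inhibitory nuclei was 4 with single-barcode classes and without the heat-shock clusters, and 1 with the deepest barcodes and at most 50000 transcripts. Subtracting background RNA gave 1 lower against intermediate progenitor nuclei. The median log2 fold of excitatory over progenitor cells was 0.84 and 0.82 at Leiden resolutions 0.5 and 2, 0.98 with single-barcode classes, 1.04 with equal weights and 1.40 after subtraction, and that in nuclei 1.73 after subtraction. For inhibitory over progenitor nuclei it was 1.15 with single-barcode classes, 1.45 without the highest doublet scores, 1.77 with equal weights, 1.70 after subtraction and 1.52 at most 50000 transcripts. For excitatory over choroid plexus nuclei it was 1.21 and 1.24 at Leiden resolutions 0.5 and 2, 1.41 with single-barcode classes, 2.13 without the highest doublet scores, 2.06 with equal weights, 2.32 after subtraction, 2.00 at most 50000 transcripts, 1.83 above 5000 and 1.90 without the heat-shock clusters. For excitatory over inhibitory nuclei it was 0.36, 0.29, 0.18, 0.25 and 0.40 with single-barcode classes, above 2000 transcripts, equal weights, at most 50000 and above 5000. The summed level of inhibitory nuclei was 75.5 with single-barcode classes, 94.0 with equal weights and 74.0 above 5000 transcripts, and that of progenitor nuclei 34.0 with single-barcode classes and 29.0 after subtraction. The summed level of choroid plexus nuclei was 37.1 and 36.8 at Leiden resolutions 0.5 and 2, 35.2 with single-barcode classes, 31.5 without the highest doublet scores, 30.8 with equal weights, 30.2 after subtraction, 32.6 at most 50000 transcripts and 33.5 above 5000. Without the excitatory cluster of 1473 nuclei, 1 member was lower against progenitors and 1 against choroid plexus, the medians against choroid plexus and intermediate progenitor nuclei were 2.00 and 0.61, and the summed excitatory level was 90.8. The cause of these shifts was not tested. Single-barcode classes give no intermediate progenitor class, so that alternative was not run for it. No paired analysis was possible because each library is 1 sample, so the groups have only 1 replicate number in common. Depth limits sparse members: 3 to 8 transcripts stood behind SV2B, RAB3A and SYT4 in inhibitory nuclei.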
